A study of Mus musculus with 9 samples.

Results

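Transcript levels in irradiated BV2 cells pretreated with triol were compared with those in irradiated BV2 cells pretreated with vehicle. The 6 libraries of these 2 groups, of 9 in the study, were taken by their labels, 3 per group. All 21951 genes of the count table entered the comparison, and 11295 of them had enough reads to be tested. BV2 is a mouse cell line made by immortalising microglia, the macrophages that reside in the brain. The irradiated vehicle group had 20% hydroxypropyl-β-cyclodextrin, a ring of sugars that carries sterols in water, for 30 min ahead of 10 Gy of X-rays. In the irradiated triol group the agent was 5α-androst-3β,5α,6β-triol at 10 µM, with the same lead time and the same dose. The sources used here do not say whether this group also had the cyclodextrin. The triol name stands in the titles of all 3 triol libraries, while the treatment labels of replicates 2 and 3 write 7β and 8β in place of 6β. The third group, unirradiated cells with vehicle, is given below as a baseline only. Triol without irradiation was not analysed here, and the sources used here do not give the time between irradiation and RNA extraction. The labels do not tie replicates to separate cultures, so the spread that the tests measure may be technical.

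The triol is a synthetic steroid with several hydroxyl groups. Hydroxylated sterols are known to act on cholesterol balance in cells: some hold back the SREBP factors, which switch on the genes of cholesterol synthesis and uptake, and some activate the LXR receptors, which switch on cholesterol export. Microglia answer injury by lowering genes of their resting state and raising others, such as Spp1 and Lpl, and they secrete proteases and matrix proteins that act on their surroundings.

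The gene whose change with triol was best resolved was Spp1, and the enzymes of cholesterol synthesis had higher estimates in 18 of 19 tested genes, so the promoters of Spp1 and of 3 of these enzymes are shown here. Each is the 250 bases before a transcription start in RefSeq, build GRCm38.p6, 5′ to 3′ on the strand of the gene, and the 4 genes were chosen after their values and motifs were seen. Capitals mark matches on either strand to CCAAT, the box bound by NF-Y (ATTGG on the other strand), to TCACNCCAC, the core of the sterol regulatory element bound by SREBP, to TGANTCA, the AP-1 site, and to TATAAA, the TATA box. No 2 of these matches overlap in the sequences printed. A second Spp1 promoter, at chr5:104435942-104436191 on the plus strand, held no match and is not printed. Hmgcs1 (3-hydroxy-3-methylglutaryl-CoA synthase, an early step of the pathway) has its promoter at chr13:119690101-119690350 on the plus strand, Mvk (mevalonate kinase) at chr5:114444019-114444268 on the plus strand, Msmo1 (a late demethylation step) at chr8:64733579-64733828 on the minus strand, and Spp1 at chr5:104434861-104435110 on the plus strand.
Hmgcs1: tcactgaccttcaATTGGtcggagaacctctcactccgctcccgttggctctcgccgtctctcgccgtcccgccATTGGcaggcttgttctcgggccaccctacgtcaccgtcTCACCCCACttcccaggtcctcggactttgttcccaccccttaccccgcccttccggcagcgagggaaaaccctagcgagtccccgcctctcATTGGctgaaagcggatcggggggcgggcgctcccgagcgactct
Mvk: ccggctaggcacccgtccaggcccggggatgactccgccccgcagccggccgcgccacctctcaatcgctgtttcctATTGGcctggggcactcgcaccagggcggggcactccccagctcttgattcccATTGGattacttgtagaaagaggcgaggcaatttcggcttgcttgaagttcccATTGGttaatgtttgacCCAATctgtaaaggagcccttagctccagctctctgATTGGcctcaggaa
Msmo1: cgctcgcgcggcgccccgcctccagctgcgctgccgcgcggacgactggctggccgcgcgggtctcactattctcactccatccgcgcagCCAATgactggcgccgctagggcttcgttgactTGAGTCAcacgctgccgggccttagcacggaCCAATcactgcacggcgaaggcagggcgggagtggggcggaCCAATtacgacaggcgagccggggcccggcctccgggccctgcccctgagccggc
Spp1: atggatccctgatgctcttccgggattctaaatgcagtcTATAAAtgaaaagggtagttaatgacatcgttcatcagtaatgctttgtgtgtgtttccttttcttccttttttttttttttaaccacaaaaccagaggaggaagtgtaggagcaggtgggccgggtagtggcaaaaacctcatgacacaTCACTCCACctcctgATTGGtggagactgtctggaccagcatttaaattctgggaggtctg

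RefSeq promoters were matched for 15 of the 19 tested cholesterol synthesis genes, with 18 promoters in all because some genes have more than 1 start. CCAAT was in 14 of these 18 (77.8%), against 33.8% of 32851 mouse promoters of the same length. TCACNCCAC was in 1 of the 18 (5.56%), that of Hmgcs1, where it begins 137 bases before the start, against 1.05% of all promoters. TGANTCA was in 2 of the 18 (11.1%), against 6.75% of all, and TATAAA was in 0, against 12.4% of all. Of the 12 genes past the threshold 8 were matched, with 10 promoters: 5 held CCAAT (50%) and 1 each held TCACNCCAC, TGANTCA and TATAAA (10.0%). The TCACNCCAC match among them is in Spp1, 61 bases before the start. The TATAAA match is in the same promoter, 211 bases before the start. A match is a string of letters and was not tested as a binding site.

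The 2 groups differed little. The threshold was an adjusted p under 0.05 in the quasi-likelihood F test of edgeR, with Benjamini-Hochberg adjustment over all tested genes. It was passed by 12 of the 11295 genes (0.106%), of which 11 rose with triol (0.0974%) and 1 fell (0.00885%). That split changed when unirradiated replicate 1 was left out of the fit, to 11 higher and 7 lower, and in a fit of the 6 libraries alone, to 15 and 7. Among the 11 that rose in the main fit, 3 liver genes had enough reads to be tested only because of the triol libraries, as described below. At an unadjusted p under 0.05 there were 524 genes higher (4.64%) and 341 lower (3.02%). The 3 triol libraries all lay above the 3 vehicle libraries in 830 genes (7.35%), and all below in 664 (5.88%). Estimates were higher with triol in 5737 genes (50.8%), and the median log2 fold change over all genes was 0.0016. The 95% interval of the log2 fold change lay within 0.25 either side of no change for 7334 genes (64.9%), within 0.5 for 9670 (85.6%) and within 1 for 10828 (95.9%). An estimate past 1 was found for 16 genes, of which 3 passed the threshold. Since these are bulk RNA samples, fewer cells of a type and less RNA per cell cannot be told apart.

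**Figure D1:**
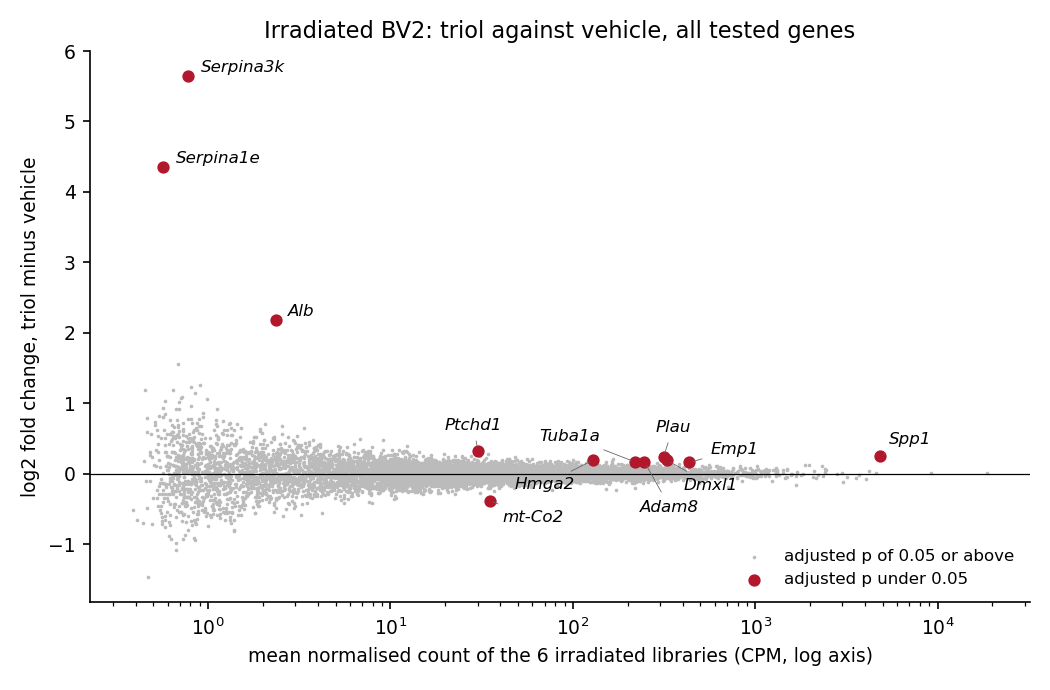
Log2 fold change of triol minus vehicle (vertical axis) against mean normalised count of the 6 irradiated libraries in CPM (horizontal log axis), 1 point per tested gene. The 12 named points passed the threshold. Apart from 3 liver genes, which have the lowest counts of the 12, they sit within 0.39 of no change.

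Total counts were 13879062 to 15192203 in the vehicle and 17230866 to 18944051 in the triol libraries, so every triol library was deeper. Genes with at least 1 read numbered 13919 to 14088 with vehicle and 14317 to 14618 with triol. The summed level of 30 homeostatic microglial genes was 1633 to 1659 RPM (reads scaled to the library total) with vehicle and 1628 to 1653 with triol, against 2106 to 2220 in unirradiated cells. Summed neuron markers were at 32.6 to 34.7 RPM with vehicle and 35.4 to 36.0 with triol, with 12 of 13 higher, and lymphocyte markers at 0.937 to 1.45 and 1.68 to 2.32, with 5 of 10 higher and 1 lower. In both lists the 3 triol libraries lay above the 3 vehicle libraries. Fibroblast and endothelial markers, 9 of 11 higher and 1 lower, overlapped at 1.84 to 3.25 and 2.98 to 4.33 RPM. Sums also overlapped for astrocytes (104 to 114, 101 to 109), oligodendrocytes (38.6 to 45.7, 38.9 to 43.9), muscle (11.7 to 13.2, 11.1 to 14.8) and erythroid cells (0.414 to 1.15, 0.792 to 2.03 RPM). Together the vehicle libraries held 0 reads of 8 of the 13 neuron markers and 6 of the 10 lymphocyte markers, and the triol libraries of 0 and 5. A marker with 0 vehicle reads counts as higher from any read in the deeper triol libraries. The part of such transcripts in the results was not tested. Liver genes are described below.

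Among the genes that rose, Spp1 came first. It encodes osteopontin, a secreted phosphoprotein that binds integrins and CD44 and is a marker of activated microglia (chromosome 5, 104435118 to 104441050). Its normalised counts were 4642, 4396 and 4265 CPM in the vehicle libraries and 5230, 5294 and 5234 in the triol libraries. All 3 triol libraries lay above all 3 vehicle libraries and close together, and all 6 lay below the unirradiated libraries at 6670, 6332 and 6396. The rise was 18.5% (log2 fold change 0.24, SE 0.03, 95% interval 0.19 to 0.30, edgeR adjusted p = 1.0e-06). Of its exonic bases, 18.8% lie in another annotated gene on the same strand.

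Plau encodes urokinase, the protease that activates plasminogen at the cell surface (chromosome 14, 20836660 to 20843385). It was at 294, 293 and 278 CPM with vehicle and 344, 359 and 320 with triol, without overlap. The log2 fold change was 0.24 (SE 0.04, edgeR adjusted p = 5.8e-04), and unirradiated cells were higher than both groups at 396, 394 and 362. Spp1 and Plau passed the threshold in each of the 18 alternative analyses run, with log2 fold changes of 0.22 to 0.27 and 0.20 to 0.28.

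Emp1, an epithelial membrane protein of the PMP22 family (chromosome 6, 135362545 to 135383173), was at 413, 415 and 407 CPM with vehicle and 455, 467 and 456 with triol (log2 fold change 0.16, SE 0.03, edgeR adjusted p = 0.019). Adam8, a membrane metalloprotease of myeloid cells (chromosome 7, 139978932 to 139992562), was at 241, 231 and 226 with vehicle and 260, 267 and 257 with triol (0.17, SE 0.04, adjusted p = 0.031). Hmga2, a chromatin protein that bends AT-rich DNA (chromosome 10, 120361275 to 120476469), was at 124, 126 and 112 with vehicle and 137, 140 and 136 with triol (0.19, SE 0.04, adjusted p = 0.031). In these 3 genes the groups did not overlap, and the triol libraries lay between the vehicle libraries and the unirradiated ones, which were at 583 to 634, 331 to 367 and 153 to 156 CPM.

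Dmxl1, a partner of the vacuolar proton pump (chromosome 18, 49832670 to 49965473), was at 298, 303 and 323 CPM with vehicle and 347, 366 and 340 with triol (log2 fold change 0.19, SE 0.03, edgeR adjusted p = 0.0028). Tuba1a, an alpha-tubulin (chromosome 15, 98949837 to 98953703), was at 197, 218 and 206 with vehicle and 234, 236 and 225 with triol (0.17, SE 0.04, adjusted p = 0.031). Ptchd1, a membrane protein with a patched domain (chromosome X, 155573455 to 155623814), was at 27.1, 26.8 and 26.3 with vehicle and 36.9, 32.1 and 31.7 with triol (0.33, SE 0.07, adjusted p = 0.037). The groups did not overlap in any of the 3. Tuba1a is uncertain as a single gene, because its transcript matches that of Tuba1b at 98.3% of aligned bases and 26.2% of its exonic bases lie in another gene on the same strand.

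Most of these smaller rises depended on all 6 libraries being in the fit. Emp1 (0.14 to 0.16) and Ptchd1 (0.25 to 0.36) missed the threshold when any 1 of the 6 was left out. Hmga2 (0.14 to 0.22) and Tuba1a (0.13 to 0.20) passed without vehicle replicate 2 alone, and Adam8 (0.15 to 0.19) without vehicle replicate 1 alone. Dmxl1 (0.16 to 0.22) failed without vehicle replicate 1, vehicle replicate 2 or triol replicate 2. Every one of these estimates stayed positive in the alternatives run. Without unirradiated replicate 2, Adam8, Hmga2, Ptchd1 and Tuba1a also missed it.

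The unirradiated cells show where these levels started. Log2 differences of the irradiated vehicle libraries from the unirradiated ones were -0.54 for Spp1, -0.41 for Plau, -0.54 for Emp1, -0.58 for Adam8, -0.36 for Hmga2, -0.25 for Dmxl1, -0.34 for Tuba1a and -0.28 for Ptchd1. That comparison and the triol comparison share the irradiated vehicle libraries, so the values are given side by side and their opposite signs are not a separate result.

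**Figure D2:**
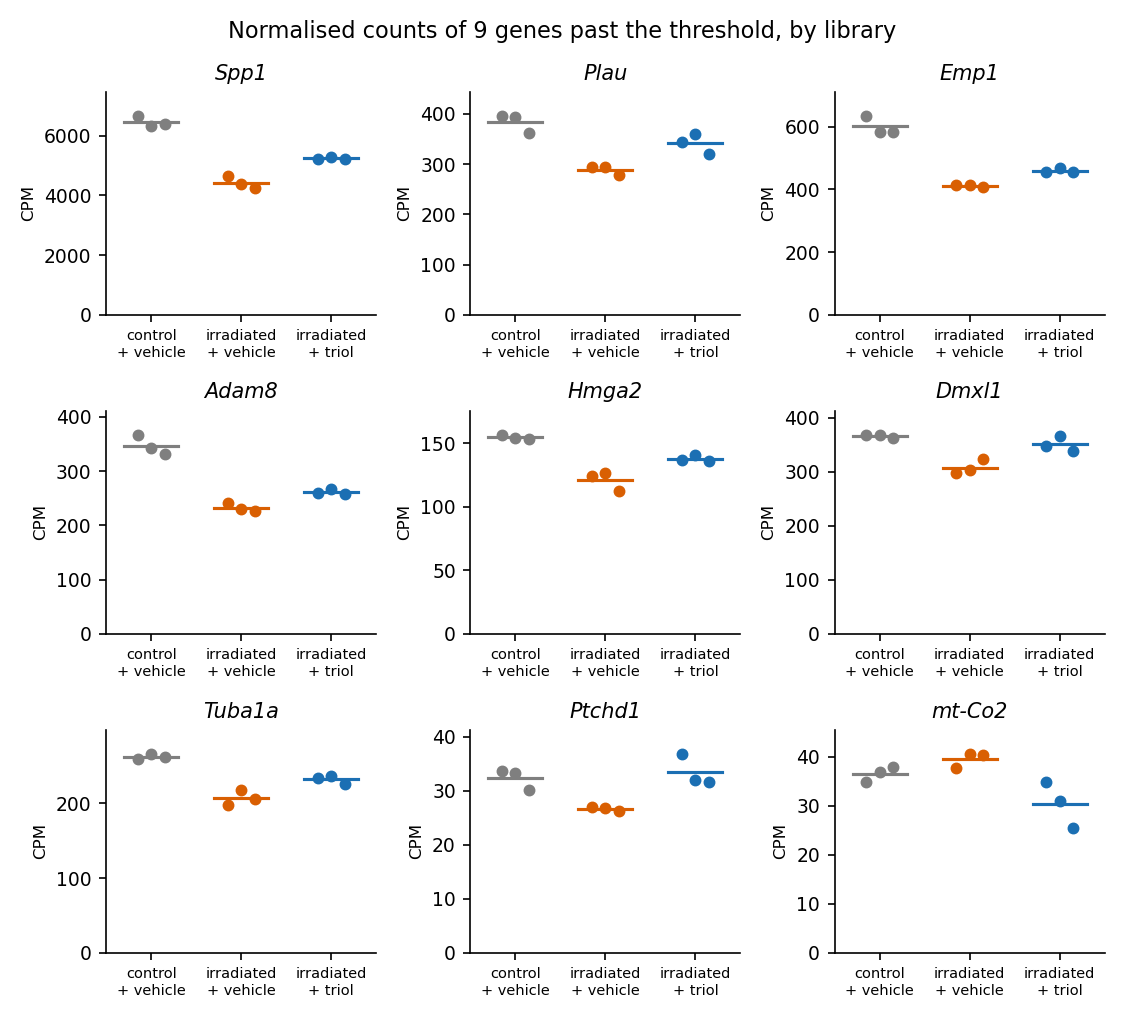
Normalised counts (CPM, vertical axes from 0) of 9 genes past the threshold in each of the 9 libraries; points are libraries and bars are group means of 3. In Spp1, Plau, Emp1, Adam8, Hmga2, Dmxl1, Tuba1a and Ptchd1 the 3 triol libraries lie above the 3 irradiated vehicle libraries, and in mt-Co2 they lie below.

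Further lists are described by counts and medians, to be read against the shares of all genes given above. Partners of Spp1 came first. In the list of osteopontin, its receptors and matrix partners 8 of 10 tested genes had higher estimates and 1, Spp1 itself, passed. The median log2 fold change was 0.07 (0.13 without vehicle replicate 2, 0.05 with a filter of 10 CPM). At an unadjusted p under 0.05, 3 of 10 (30.0%) were higher. These 3 include Spp1, and the list was chosen with earlier results of these data known, so the share is not separate support. Cd44, the hyaluronan receptor that also binds osteopontin, was at 589, 611 and 571 CPM with vehicle and 635, 658 and 619 with triol (log2 fold change 0.11, SE 0.03, edgeR adjusted p = 0.25). Itga5, the fibronectin receptor subunit, had 0.10 (adjusted p = 0.46), and Itgav, the αv integrin subunit, 0.05 (adjusted p = 0.78). Levels of both were above the vehicle group in all 3 triol libraries, by less than the threshold asks.

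In the urokinase system and matrix proteases 15 of 19 tested genes had higher estimates, and Plau and Adam8 passed. At an unadjusted p under 0.05, 5 (26.3%) were higher, with Plau and Adam8 among these 5. The median was 0.07. That median was 0.17 with no filter on low counts and 0.04 without vehicle replicate 3 or triol replicate 2. Adamts1, which cleaves versican and other proteoglycans, was at 126, 118 and 120 CPM with vehicle and 135, 141 and 136 with triol (log2 fold change 0.17, SE 0.04, edgeR adjusted p = 0.078). Mmp19, a matrix metalloprotease, was at 88.6, 90.1 and 83.4 with vehicle and 98.9, 101 and 95.5 with triol (0.17, adjusted p = 0.16). Both separated the groups without passing the threshold. Plaur, the urokinase receptor, overlapped between the groups at 67.6 to 71.8 and 71.4 to 76.9 CPM (0.07, adjusted p = 0.79).

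The enzymes of cholesterol synthesis had the second largest positive median, 0.11, after the liver list, among the lists with at least 5 tested genes. Of 19 tested, 18 had higher estimates, 6 (31.6%) were higher at an unadjusted p under 0.05, 7 separated the groups, and 0 passed the adjusted threshold. Sqle, squalene epoxidase, was at 121, 116 and 110 CPM with vehicle and 126, 136 and 129 with triol (log2 fold change 0.17, SE 0.04, edgeR adjusted p = 0.099). Msmo1 was at 120, 108 and 112 with vehicle and 131, 134 and 120 with triol (0.18, SE 0.04, adjusted p = 0.10). In both genes the groups did not overlap, but the lowest triol library lay close to the highest vehicle library.

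Cyp51, lanosterol demethylase, had a log2 fold change of 0.18 (edgeR adjusted p = 0.27) and Fdft1, squalene synthase, 0.21 (adjusted p = 0.27). Hmgcs1 was at 116, 115 and 122 CPM with vehicle and 123, 132 and 123 with triol (0.10, adjusted p = 0.56). Mvk, at 7.00 to 7.84 CPM with vehicle and 7.93 to 9.05 with triol, had 0.15 (adjusted p = 0.82). The 1 lower estimate was that of Fdps, farnesyl diphosphate synthase, near 4 CPM in both groups (-0.07, adjusted p = 0.96). Taken by library, the list's median log2 difference from the vehicle mean was 0.11, 0.19 and 0.06 in the triol libraries and 0.03, -0.03 and -0.01 in the vehicle libraries. The highest was triol replicate 2. Against the unirradiated cells the median of the list was -0.38 in the vehicle group and -0.22 in the triol group.

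In the list of cholesterol uptake and SREBP control 15 of 18 had higher estimates, 4 (22.2%) at an unadjusted p under 0.05, with a median of 0.04. Npc1, which moves cholesterol out of lysosomes, was at 189 to 192 CPM with vehicle and 202 to 214 with triol (log2 fold change 0.12, edgeR adjusted p = 0.21). Insig2, which holds SREBP in the endoplasmic reticulum, had 0.15 (adjusted p = 0.58), and Stard4, a sterol carrier, 0.11 (adjusted p = 0.60). The 3 triol libraries were above the vehicle group in Npc1 and Stard4 and overlapped it in Insig2.

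Fatty acid synthesis had a median of 0.04, with 12 of 15 higher and 1 (6.67%) at an unadjusted p under 0.05. That 1 was Me1, malic enzyme, at 189, 195 and 197 CPM with vehicle and 212, 210 and 204 with triol (0.11, edgeR adjusted p = 0.34). Scd1, the stearoyl-CoA desaturase, had the largest estimate of the list (0.55, adjusted p = 0.72) at a level of 0.684 to 1.59 CPM.

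Targets of LXR and oxysterol genes did not lean to either side: 8 of 14 were higher, 1 (7.14%) at an unadjusted p under 0.05, and the median was 0.01. Abca1, the exporter of cholesterol to apolipoprotein A-I, was at 197, 197 and 207 CPM with vehicle and 187, 198 and 204 with triol. Its log2 fold change was -0.03 with a 95% interval of -0.10 to 0.04 (edgeR adjusted p = 0.91). Abcg1, which exports cholesterol to high density lipoprotein, was at 227 to 244 and 227 to 232 (-0.05, interval -0.13 to 0.02, adjusted p = 0.79). Apoe, a lipid carrier, was at 1498 to 1510 with vehicle and 1408 to 1489 with triol (-0.05, adjusted p = 0.70). In Abca1 and Abcg1 the groups overlapped, and in Apoe the triol libraries were lower without passing the threshold.

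The glucocorticoid-responsive list held 5 higher and 14 lower estimates of 19, with 3 higher (15.8%) and 2 lower (10.5%) at an unadjusted p under 0.05 and a median of -0.04. Fkbp5, an immunophilin induced by glucocorticoids, overlapped at 58.8 to 65.7 CPM with vehicle and 59.3 to 64.4 with triol (log2 fold change -0.01, interval -0.12 to 0.10, edgeR adjusted p = 0.98). The sign of that estimate turned in 2 of the alternatives, given in the closing section. Tsc22d3, the leucine zipper protein GILZ, was at 13.1 to 14.1 and 10.8 to 13.8 (-0.15, interval -0.35 to 0.05, adjusted p = 0.78). Anxa1, annexin A1, had 0.13 (adjusted p = 0.21), and Sgk1, a serum- and glucocorticoid-regulated kinase, was at 20.5 to 23.5 and 26.4 to 27.1 (0.25, adjusted p = 0.30). Mt1, a metallothionein, had -0.11 (adjusted p = 0.42) and Cebpd, a transcription factor of the C/EBP family, -0.25 (adjusted p = 0.48).

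Among steroid receptors and enzymes of steroid metabolism 8 of 11 were higher, with a median of 0.05. Cyp11a1, which cuts the side chain of cholesterol to make pregnenolone, was the 1 gene (9.09%) at an unadjusted p under 0.05. It was at 8.62, 7.35 and 6.86 CPM with vehicle and 9.94, 11.4 and 10.5 with triol, without overlap, and at 3.97 to 4.81 in unirradiated cells (log2 fold change 0.48, SE 0.12, edgeR adjusted p = 0.12). Here the triol libraries lay farther from the unirradiated level than the vehicle libraries did.

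The vacuolar proton pump and its regulators had 21 of 23 estimates higher and a median of 0.05. At an unadjusted p under 0.05, 5 (21.7%) were higher, among them Dmxl1, which passed the threshold. Atp6v0d2, a subunit found in macrophages and osteoclasts, was at 33.6, 31.0 and 28.2 CPM with vehicle and 36.9, 39.4 and 36.3 with triol (log2 fold change 0.28, SE 0.07, edgeR adjusted p = 0.14). Atp6v0e, another membrane subunit, had 0.12 (adjusted p = 0.51), and Atp6v1a, the catalytic subunit, 0.06 (adjusted p = 0.57). The groups separated in all 3 genes. By library the list's median was 0.06, 0.06 and 0.05 above the vehicle mean with triol.

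**Figure D3:**
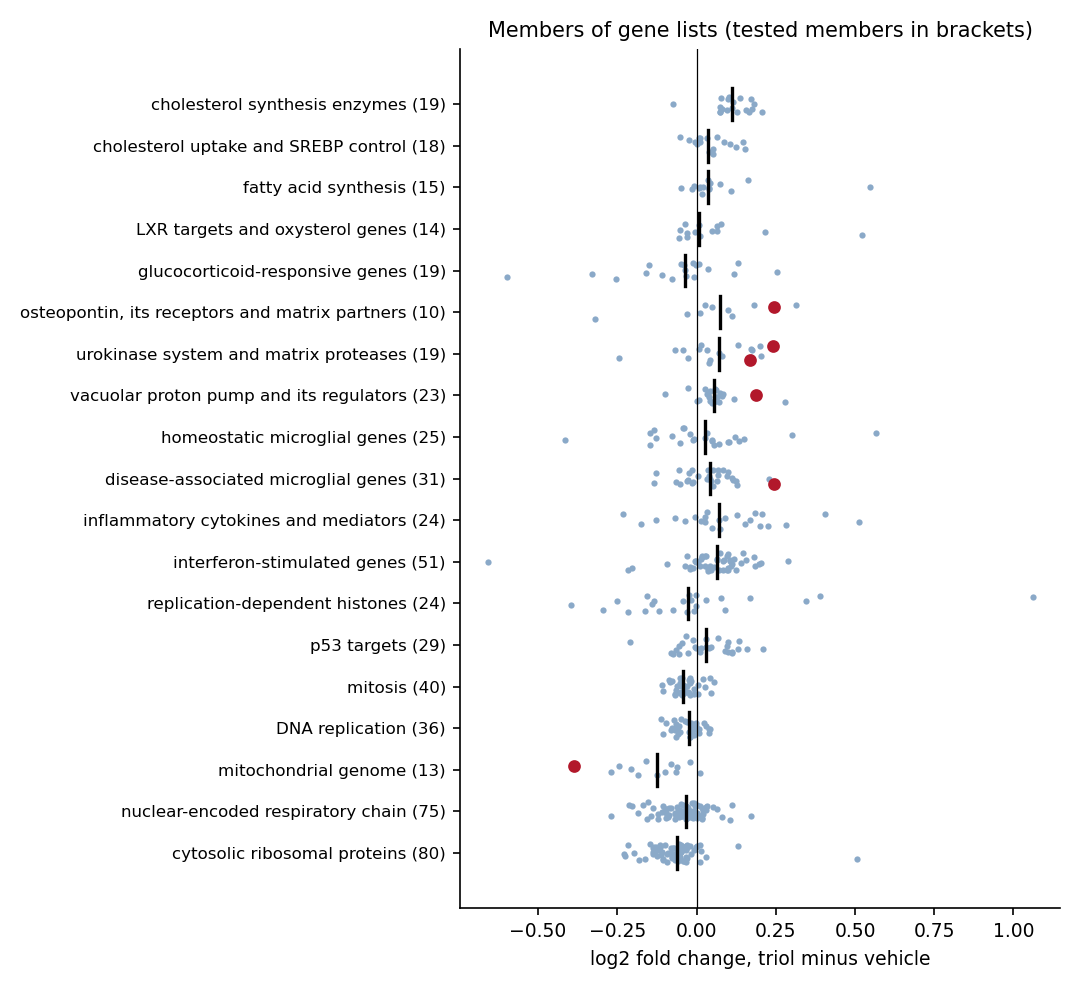
Log2 fold change of triol minus vehicle for the tested members of 19 gene lists, 1 point per gene; red points passed the threshold and black bars are list medians. Medians run from -0.12 for the mitochondrial genome to 0.11 for cholesterol synthesis, and most points lie within 0.25 of no change.

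Genes of microglial state were followed in 2 lists. Of 31 tested disease-associated microglial genes 20 were higher, 8 (25.8%) at an unadjusted p under 0.05. The groups did not overlap in 10 genes that were higher and 2 that were lower, where the shares over all tested genes were 7.35% and 5.88%. Spp1 passed the threshold and is among these 8 and these 10. The median was 0.04. Lpl, lipoprotein lipase, was at 1854, 1783 and 1773 CPM with vehicle and 1980, 2048 and 1873 with triol (log2 fold change 0.13, SE 0.03, edgeR adjusted p = 0.078). Cd9, a tetraspanin, was at 569 to 597 and 625 to 646 (0.11, adjusted p = 0.14), and Lgals3, galectin 3, at 952 to 1029 and 1034 to 1110 (0.11, adjusted p = 0.26). The groups did not overlap in these 3 genes, and unirradiated cells were higher than both groups, at 2422 to 2458, 723 to 736 and 1309 to 1437 CPM.

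Of 25 homeostatic microglial genes 13 were higher, 3 (12%) higher and 2 (8.00%) lower at an unadjusted p under 0.05, with a median of 0.03. Cx3cr1, the fractalkine receptor of microglia, was at 15.1, 13.99 and 13.5 CPM with vehicle and 14.6, 17.0 and 13.1 with triol, overlapping, and at 31.2 to 34.2 in unirradiated cells (log2 fold change 0.07, interval -0.12 to 0.26, edgeR adjusted p = 0.92); its sign turned when triol replicate 2 was left out. Trem2, a lipid-sensing receptor, was at 69.9 to 79.1 and 80.1 to 82.6 (0.10, adjusted p = 0.63). Maf, a transcription factor, had 0.57 (adjusted p = 0.55) and Aif1, the microglial marker IBA1, -0.41 (adjusted p = 0.64), both below 4 CPM in all 6 libraries.

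In the list of inflammatory cytokines and mediators 18 of 24 were higher, 5 (20.8%) higher and 1 (4.17%) lower at an unadjusted p under 0.05, with a median of 0.07 and 0 past the threshold. Tnf, tumour necrosis factor, was at 54.6, 52.3 and 54.7 CPM with vehicle and 45.4, 50.5 and 47.2 with triol, without overlap, and at 42.0 to 45.6 in unirradiated cells (log2 fold change -0.18, SE 0.06, edgeR adjusted p = 0.35). Ptgs2, the inducible cyclooxygenase, was at 45.9 to 50.2 and 52.6 to 58.0 (0.18, adjusted p = 0.37), and Ccl7, a chemokine for monocytes, at 14.7 to 19.4 and 20.3 to 22.6 (0.28, adjusted p = 0.30). Thus Tnf and Ptgs2, both higher in irradiated vehicle cells than in unirradiated cells (0.30 and 0.40), had estimates of opposite sign with triol, and neither passed.

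Csf1, a growth factor for macrophages, had a log2 fold change of 0.13 (edgeR adjusted p = 0.30), and Ccl2, another monocyte chemokine, 0.17 (adjusted p = 0.55). Il1b, interleukin 1β, overlapped at 3.92 to 4.65 and 4.45 to 6.14 CPM (0.21, interval -0.16 to 0.57, adjusted p = 0.85). Nos2, the inducible nitric oxide synthase, overlapped at 2.16 to 3.43 and 1.97 to 2.68 (-0.23, interval -0.70 to 0.24, adjusted p = 0.87). For both the interval reaches past 0.5, so a change of that size was not resolvable at this depth. In the list of NADPH oxidase and nitric oxide synthase genes 0 of 10 had an unadjusted p under 0.05. Cybb, the catalytic subunit of the phagocyte oxidase, was at 490 to 505 with vehicle and 472 to 490 with triol, against 847 to 882 in unirradiated cells (-0.05, interval -0.11 to 0.005, adjusted p = 0.70).

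Interferon-stimulated genes, with a median log2 difference of 1.62 between irradiated vehicle and unirradiated cells, had 39 of 51 estimates higher with triol and a median of 0.06. At an unadjusted p under 0.05, 5 were higher (9.80%) and 2 lower (3.92%), and the groups overlapped in all 51. The list's median by library ran from -0.13 to 0.13 in the vehicle group and from -0.02 to 0.14 in the triol group, so vehicle libraries differed among themselves by more than the groups did. Cxcl10, a chemokine that attracts T cells, was at 36.2, 33.8 and 29.0 CPM with vehicle and 35.9, 35.7 and 37.9 with triol, against 3.71 to 5.96 in unirradiated cells (log2 fold change 0.15, interval -0.01 to 0.30, edgeR adjusted p = 0.69). Stat2, a component of the interferon response factor, had 0.18 (adjusted p = 0.46), Eif2ak2, the RNA-dependent kinase PKR, 0.10 (adjusted p = 0.54) and Parp14, an ADP-ribosyltransferase, 0.11 (adjusted p = 0.60). Ifi27l2a had -0.20 (adjusted p = 0.60).

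Replication-dependent histones had 7 of 24 estimates higher, 1 (4.17%) at an unadjusted p under 0.05, and a median of -0.03. Against unirradiated cells their median was 2.38 in the vehicle group and 2.33 in the triol group. Hist1h2ae, a copy of histone H2A, was at 0.4997 to 0.752 CPM with vehicle and 1.16 to 1.68 with triol (log2 fold change 1.06, SE 0.38, edgeR adjusted p = 0.41). These clustered genes are alike in sequence, so single members are uncertain. Hist1h2ae also had enough reads to be tested only with the triol libraries counted.

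Of 29 p53 targets 17 were higher, 4 (13.8%) at an unadjusted p under 0.05, with a median of 0.03. Cdkn1a, the cell cycle inhibitor p21, overlapped at 79.5 to 91.2 CPM with vehicle and 88.8 to 96.6 with triol, above the 63.7 to 65.7 of unirradiated cells (log2 fold change 0.10, interval 0.003 to 0.20, edgeR adjusted p = 0.64). Mdm2, which marks p53 for degradation, had 0.04 (interval -0.04 to 0.13, adjusted p = 0.86). Plk2, a stress-induced kinase, was at 343, 340 and 311 with vehicle and 361, 366 and 360 with triol, without overlap (0.13, SE 0.04, adjusted p = 0.17). Plk3 had 0.21 (adjusted p = 0.40) and Polk, a DNA polymerase that passes lesions, 0.16 (adjusted p = 0.48).

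Mitotic genes had 33 of 40 estimates lower, 1 (2.5%) at an unadjusted p under 0.05, with a median of -0.04. Ube2c, a ubiquitin-conjugating enzyme of mitotic exit, was at 214 to 221 CPM with vehicle and 194 to 210 with triol (log2 fold change -0.09, edgeR adjusted p = 0.50). DNA replication genes had 28 of 36 lower, 1 (2.78%) at an unadjusted p under 0.05, and a median of -0.02. Mcm2, a subunit of the replicative helicase, was at 183 to 204 and 175 to 181 (-0.11, adjusted p = 0.40). The shares at an unadjusted p under 0.05 were near that of all genes in both lists.

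For oxidative stress, 17 of 27 NRF2 targets were higher, 2 (7.41%) at an unadjusted p under 0.05, with a median of 0.03. Hmox1, heme oxygenase 1, overlapped at 232, 237 and 220 CPM with vehicle and 230, 242 and 246 with triol, both above unirradiated cells at 113 to 121 (log2 fold change 0.06, interval -0.01 to 0.13, edgeR adjusted p = 0.74). Srxn1, sulfiredoxin, had 0.09 (adjusted p = 0.54), and Slc40a1, the iron exporter ferroportin of the ferroptosis list, 0.11 (adjusted p = 0.57). In the ferroptosis and iron list 13 of 20 were higher, 2 (10.0%) at an unadjusted p under 0.05. The unfolded protein response had 22 of 25 higher, 3 (12%) at an unadjusted p under 0.05, and a median of 0.03. Hsp90b1, a chaperone of the endoplasmic reticulum, was at 799 to 818 and 834 to 870 (0.08, adjusted p = 0.44).

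Mitochondrial and ribosomal genes had mostly lower estimates with triol. Of the 13 protein genes of the mitochondrial genome 12 had lower estimates, 8 (61.5%) at an unadjusted p under 0.05, and mt-Co2 fell. The median was -0.12, and by library it was -0.08, -0.17 and -0.14 with triol and -0.04, -0.01 and 0.04 with vehicle. mt-Co2, subunit 2 of cytochrome oxidase (mitochondrial DNA, 7013 to 7696), was at 37.8, 40.6 and 40.4 CPM with vehicle and 34.9, 30.8 and 25.4 with triol, and at 34.9 to 37.9 in unirradiated cells. The groups did not overlap, triol replicate 3 was lowest, and the log2 fold change was -0.39 (SE 0.08, edgeR adjusted p = 0.020). Without vehicle replicate 2 or 3, or triol replicate 2 or 3, it missed the threshold, at -0.50 to -0.27 over the 6 libraries left out in turn.

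Copies of mitochondrial DNA in the nuclear genome bear on this gene. The mt-Co2 transcript matches Gm28661, a pseudogene on chromosome 1, at 100% of 681 aligned bases, and mt-Atp6 and mt-Co3 match their copies there at 100% as well. In the vehicle group mt-Co2 was at 57.8 CPM per kb of exon, mt-Atp6 at 59.0 and mt-Co3 at 42.9, against 12050 for mt-Co1, whose nearest copy matches at 97.6%. mt-Co2, mt-Atp6, mt-Co3, mt-Nd3 and mt-Nd4l are therefore uncertain as single genes, since the sources used here do not say how reads with several matches were treated.

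Genes of the mitochondrial genome at higher levels had smaller differences. mt-Nd5, a subunit of complex I, was at 3104, 3123 and 3262 CPM with vehicle and 2926, 2780 and 3003 with triol (log2 fold change -0.12, SE 0.03, edgeR adjusted p = 0.092). mt-Nd6 was at 783, 704 and 768 with vehicle and 665, 636 and 683 with triol (-0.19, SE 0.06, adjusted p = 0.41), and mt-Nd2 at 1674, 1682 and 1968 against 1587, 1576 and 1599 (-0.16, adjusted p = 0.56). The groups did not overlap in these 3 genes. mt-Co1, the most abundant, was at 18380 to 18880 with vehicle and 18670 to 18810 with triol, within the vehicle range (0.01, SE 0.03, adjusted p = 0.96).

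Respiratory chain genes of the nucleus had 56 of 75 estimates lower, 10 (13.3%) at an unadjusted p under 0.05 and 0 past the threshold, with a median of -0.03. Atp5j, a subunit of ATP synthase, was at 98.1, 95.02 and 96.2 CPM with vehicle and 86.6, 87.4 and 88.8 with triol, without overlap (log2 fold change -0.14, SE 0.04, edgeR adjusted p = 0.35). Ndufv3, of complex I, had -0.20 (adjusted p = 0.41), Uqcr11, of complex III, -0.27 (adjusted p = 0.37) and Cox4i1, of cytochrome oxidase, -0.09 (adjusted p = 0.48). In mitochondrial transcription and mRNA maintenance 19 of 27 were lower, 1 each way (3.70%) at an unadjusted p under 0.05. Tfam, which packages and transcribes mitochondrial DNA, was at 49.6 to 52.4 with vehicle and 46.4 to 49.4 with triol (-0.10, adjusted p = 0.71).

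**Figure D4:**
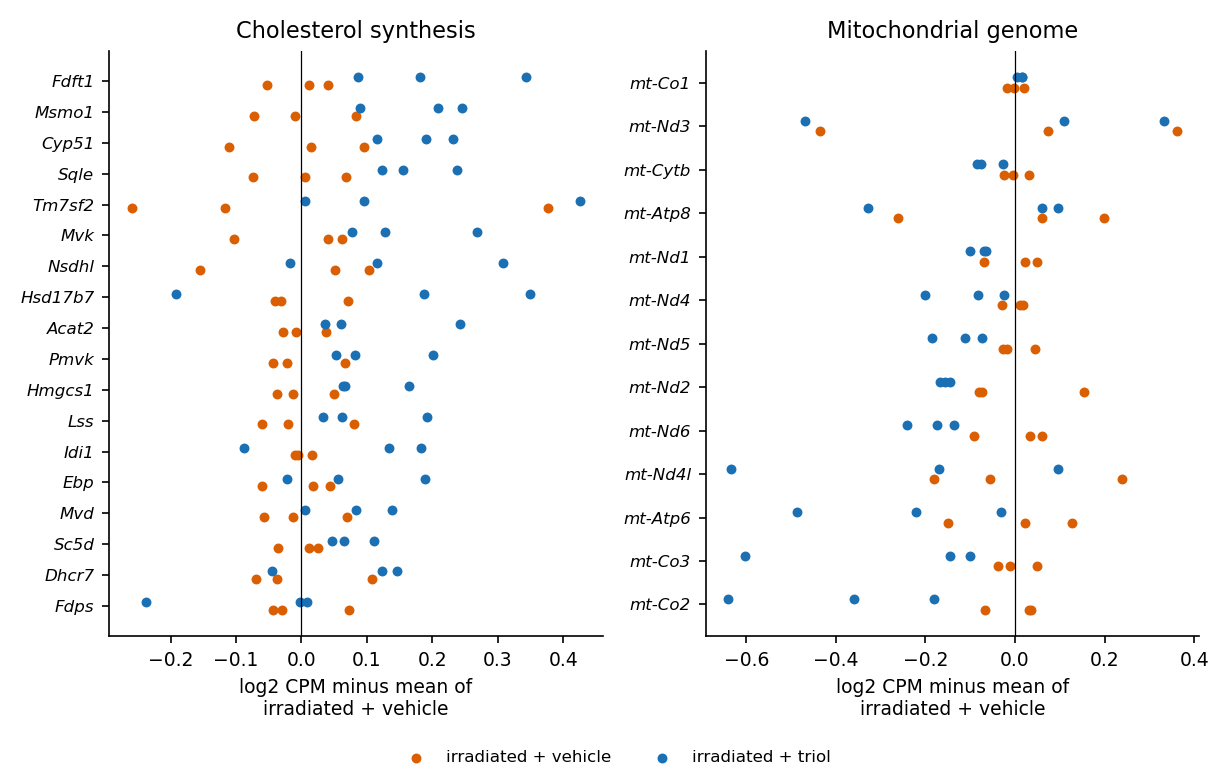
Log2 CPM of each irradiated library minus the mean of the 3 irradiated vehicle libraries, for 18 of the 19 cholesterol synthesis genes (left) and 13 genes of the mitochondrial genome (right), ordered by fold change; each point is a library. Triol points lie mostly right of the line on the left panel and left of it on the right panel, and mt-Co2, mt-Co3 and mt-Atp6 spread most between triol libraries among the genes above 20 CPM.

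Cytosolic ribosomal proteins had 74 of 80 estimates lower, 20 (25.0%) at an unadjusted p under 0.05, with 0 past the threshold and a median of -0.06. The groups did not overlap in 31 genes that were lower and 1 that was higher, where the shares over all tested genes were 5.88% and 7.35%. Rpl35, Rpl36, Rpl37 and Rpl41, named after their values were seen, fell past it without unirradiated replicate 1 and in the fit of the 6 libraries alone, as did mt-Nd5 and mt-Nd6. Rps15 was at 259, 253 and 253 CPM with vehicle and 230, 227 and 241 with triol (log2 fold change -0.13, SE 0.03, edgeR adjusted p = 0.14). Rpl29 was at 295 to 316 and 271 to 290 (-0.11, adjusted p = 0.33), Rpl10a at 308 to 335 and 294 to 302 (-0.11, adjusted p = 0.36) and Rpl32 at 343 to 367 and 329 to 341 (-0.10, adjusted p = 0.36). The triol libraries were below the vehicle libraries in all 4. Ribosomal genes took 3.67% to 3.81% of all counts with vehicle and 3.58% to 3.66% with triol. Ribosomal genes have many pseudogene copies, so single members are uncertain.

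The mitochondrial and ribosomal genes were also short. Median exonic length was 784 bases for the mitochondrial genes and 1754 for the ribosomal genes, against 4512 over all tested genes. Among the fifth of genes with the shortest exonic length (66 to 2547 bases) 44.6% had higher estimates, with 68 higher and 111 lower at an unadjusted p under 0.05. In the fifth with the longest (7638 to 123179 bases) 54.1% were higher, with 126 higher and 51 lower. The part of length in the lower levels of mitochondrial and ribosomal genes was not tested.

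Outside the lists, the genes nearest the threshold on the higher side were Plek, Eps8, Pmp22 and Alcam. Plek, pleckstrin of myeloid cells, was at 1907, 1894 and 1863 CPM with vehicle and 2055, 2095 and 1999 with triol (log2 fold change 0.12, SE 0.03, edgeR adjusted p = 0.063). Eps8, an actin-capping protein, had 0.15 (adjusted p = 0.078), Pmp22, a relative of Emp1, 0.15 (adjusted p = 0.082), and Alcam, an adhesion molecule, 0.14 (adjusted p = 0.10). On the lower side they were Prmt5, an arginine methyltransferase (-0.14, adjusted p = 0.20), Nup85, of the nuclear pore (-0.16, 0.23), Mob3b (-0.42, 0.25), Ube2s, which extends ubiquitin chains in mitosis (-0.13, 0.27), Srm, spermidine synthase (-0.14, 0.28), and Eri3 (-0.21, 0.28). The groups did not overlap in any of these 10 genes, but the genes were picked by their small p, so that is not separate support.

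The last 3 genes past the threshold are made by hepatocytes. Alb, serum albumin (chromosome 5, 90460897 to 90476602), had 24, 11 and 2 reads in the vehicle libraries and 61, 65 and 82 in the triol libraries, with 4, 11 and 6 in unirradiated cells. Serpina3k, a liver serpin (chromosome 12, 104338486 to 104346144), had 1, 0 and 0 reads against 26, 37 and 19, and Serpina1e, an α1-antitrypsin copy (chromosome 12, 103946931 to 103958975), 0, 0 and 2 against 24, 20 and 14. All 3 triol libraries held more reads than any other library. In RPM, triol was 4.56 times vehicle for Alb (95% exact counting interval 3.21 to 6.66), 66.6 times for Serpina3k (11.6 to 2661) and 23.5 times for Serpina1e (6.23 to 199), and these intervals cover counting error only.

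edgeR adjusted p-values were 5.8e-04 for Alb, 3.4e-05 for Serpina3k and 8.8e-04 for Serpina1e. Serpina3k and Serpina1e had enough reads to be tested only in the triol libraries, and Alb also needed those libraries to be tested. Since the filter on low counts let them in where they are high, these p-values are not separate support for a rise. Triol libraries were alike in Alb, at 3.53 to 4.31 CPM, and spread more in Serpina3k, at 0.998 to 2.11, and Serpina1e, at 0.735 to 1.39, while Alb ran from 2 to 24 reads between vehicle libraries. All 3 genes passed with each of the 6 libraries left out in turn, but the few vehicle reads set the size. The fitted log2 fold change of Alb was 2.18, and it was 3.09 without vehicle replicate 1 and 1.65 without vehicle replicate 3. That of Serpina3k was 5.65, and 7.63 without vehicle replicate 1, where 0 vehicle reads remain. That of Serpina1e was 4.35, and 7.13 without vehicle replicate 3, where 0 remain. Fits against 0 reads depend on the prior count. Serpina1e matches Serpina1b at 96.3% of aligned bases and Serpina3k matches Serpina3c at 85.6%, so both are uncertain as single genes.

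Of the 40 hepatocyte markers 36 were under 1 RPM in unirradiated cells, and 33 of these 36 were higher with triol. Of the 40, 7 had 0 vehicle reads and so counted as higher from any read in the deeper triol libraries. Alb, Serpina3k and Serpina1e, already described, are among the 36. They had 37, 1 and 2 reads over the vehicle libraries and 208, 82 and 58 over the triol libraries. Summed over the 36, the libraries held 107, 80 and 75 reads with vehicle and 330, 350 and 367 with triol. That is 7.39, 5.76 and 4.94 RPM with vehicle, 19.2, 20.0 and 19.4 with triol, and 2.55, 5.65 and 3.21 in unirradiated cells. The triol libraries were alike and all above the rest. The other 4 markers, Hp, Rbp4, Ass1 and Trf, summed to 50.8, 54.9 and 48.6 RPM with vehicle and 45.7, 50.5 and 49.3 with triol, overlapping. Hp, haptoglobin, had a lower estimate with triol (log2 fold change -0.20, edgeR adjusted p = 0.46).

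The following liver genes were chosen after their values were seen. Fga, a fibrinogen chain, had 0 reads in the vehicle libraries together and 20 in the triol libraries. With 3 reads put in place of the 0, the ratio in RPM is 5.41. That value leaves out counting error in the 20 reads. Fgg (13 reads with triol), Vtn (10), Cyp2c29 (7) and Cyp3a11 (7) also had 0 reads with vehicle. Mup3, a major urinary protein with near-identical paralogs, had 4 reads against 40 (8.12 times in RPM, interval 2.93 to 31.2), and Cyp2e1, a liver cytochrome, 4 against 39 (7.91 times, 2.86 to 30.5). Apoc1, Serpinc1, Ambp and Apoa2 were already present in every unirradiated library, at 2 to 17 reads. How these reads came into the triol libraries was not tested, and the part of such RNA in other differences between the groups was not tested. With the 40 markers left out of the table, Spp1, Plau, Dmxl1, Emp1 and mt-Co2 passed the threshold. Hmga2 (log2 fold change 0.19), Adam8 (0.17), Tuba1a (0.16) and Ptchd1 (0.33) kept their estimates there and missed it, with edgeR adjusted p of 0.054 for each. The same 4 also missed it with upper quartile scaling and with a filter of 10 CPM, at adjusted p of 0.054 to 0.062.

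**Figure D5:**
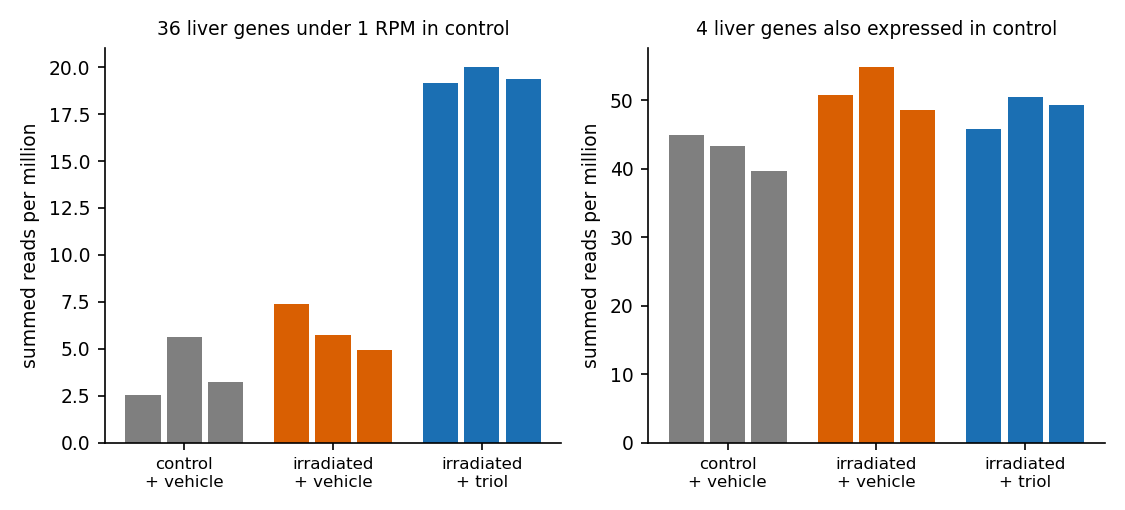
Summed RPM in each of the 9 libraries (bars, from 0) for 36 hepatocyte markers under 1 RPM in unirradiated cells (left) and the 4 others (right). The 36 include Alb, Serpina3k and Serpina1e. On the left the 3 triol libraries are at 19.2 to 20.0 and the other 6 at 2.55 to 7.39; on the right the irradiated groups overlap.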

How the data were processed

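RNA of 9 BV2 libraries, 3 per group, was analysed from the deposited table of whole-number read counts per gene, which the authors made and did not normalise. Per the submitters' processing notes reads passed through fastp 0.18.0, FastQC, STAR 2.7.1a (build GRCm38) and featureCounts of Subread 1.6.3. Strand setting, annotation release and handling of reads with several matches: not given in the sources used here. Groups and replicate numbers came from the sample titles. Coordinates and overlaps were taken from GENCODE M21.

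All 9 libraries were fitted together, with filterByExpr, TMM scaling and the robust quasi-likelihood F test of edgeR 4.0.16 (R 4.3.3), two-sided, on 6 residual degrees of freedom. Adjusted p-values in the text are from this test, with Benjamini-Hochberg adjustment over 11295 genes and a threshold of 0.05. The filter left out 10656 genes, of which 5368 had 0 reads in the 6 libraries compared. CPM values are after TMM, and RPM values are reads scaled to the total count. The biological coefficient of variation was 3.18%. The 3 pairs of irradiated vehicle libraries and the 3 pairs of triol libraries each differed by more than sampling noise (chi-square per degree of freedom 1.98 to 2.59). That measure cannot tell separate cultures from technical libraries. Each library was counted as 1 sample. Total counts were 13879062 to 18944051. The nearest other gene by sequence was found with blastn 2.17.0 among GENCODE M21 transcripts.

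Named genes were all past the threshold, the 8 with the smallest p among the rest in each direction, up to 4 with the smallest p in each list, and 19 fixed genes of inflammation, DNA damage, oxidative stress, cholesterol, glucocorticoids and microglial state. A few genes under this rule are not reported here. Genes and lists were chosen with earlier results of these data known. Scripts were tested on simulated data. Alternatives were DESeq2 1.42.0, voom of limma 3.58.1, upper quartile scaling, no filter or one of 10 CPM, a fit of the 6 libraries alone, the replicate number as a block, tables without the hepatocyte or mitochondrial genes, and each of the 9 libraries left out in turn.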

Additional observations from a re-analysis of the deposited data

How the results depend on the processing

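The number of genes called past the threshold was 12. It was 16 with limma-voom, 8 with upper quartile scaling and 11 without the mitochondrial genes. DESeq2, which gave an adjusted p for 2755 genes, called 19, of which 7 were among the 12. Alb, mt-Co2, Ptchd1, Serpina1e and Serpina3k got no adjusted p from DESeq2, so they were not evaluated there. The number was 36 with no filter on low counts, 5 with a filter of 10 CPM, 22 in a fit of the 6 libraries alone and 5 without hepatocyte markers. With libraries left out in turn the number ranged from 6 (without triol replicate 2) to 19 (without unirradiated replicate 3). With the replicate number as a block 22 were called, 17 higher and 5 lower, and with no filter 27 and 9. Same-numbered vehicle and triol libraries had correlations of -0.05, -0.01 and 0.0007 of their deviations from the group means, so the numbers were not taken as pairs.

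Estimates turned sign for Tubb5 (-0.00546 to 0.0403 with libraries left out in turn, lowest without vehicle replicate 1), Hist1h4h (-0.0269 to 0.722, lowest without vehicle replicate 3), Fkbp5 (-0.0581 to 0.0229, above 0 without vehicle replicate 3 and at 0.0138 without triol replicate 1) and Cx3cr1 (-0.0362 without triol replicate 2), none past the threshold in any of them. The medians of the lists for LXR targets (-0.03 to 0.02), homeostatic microglia (-0.02 to 0.04), AP-1 (-0.02 to 0.05) and interferon-stimulated genes (-0.02 to 0.13) crossed 0, and the cause was not tested. That of hepatocyte markers also crossed 0, at -0.11 to 2.14. Each median is over the members tested in that setting, and the filter on low counts changes them. In the main fit 11 of the 40 hepatocyte markers were tested, so their medians are over different genes. The osteopontin list ran from 0.05 to 0.13 and the urokinase list from 0.04 to 0.17. Cholesterol synthesis stayed at 0.06 to 0.15, the mitochondrial genome at -0.19 to -0.09 and ribosomal proteins at -0.09 to -0.05. Genes near 1 CPM rest on under 100 reads per library.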

Other observations

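Genes that relay growth signals, and small families around 2 of the genes past the threshold, had values that belong in no group described above. Of 15 ERK feedback genes 10 were higher with triol, 2 (13.3%) at an unadjusted p under 0.05, with a median log2 fold change of 0.04. Dusp4, a phosphatase of ERK, was at 140 to 148 CPM with vehicle and 154 to 160 with triol (0.12, edgeR adjusted p = 0.35). Of 19 AP-1 and immediate early genes 11 were higher, with a median of 0.01; Fos was at 33.6 to 36.2 with vehicle and 31.9 to 33.0 with triol (-0.13, adjusted p = 0.68), and Myc at 3.73 to 5.00 and 5.01 to 6.62 (0.38, adjusted p = 0.58). Among 9 high mobility group genes Hmga2 alone passed, 6 of 9 estimates were lower and the median was -0.03. Among 13 tubulins Tuba1a alone passed, with a median of 0.02; Tubb2a, a beta-tubulin, was at 69.6 to 73.9 and 76.8 to 80.4 (0.15, adjusted p = 0.36).

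The next 2 genes were chosen after their values were seen. Fn1, fibronectin, which was left out by the filter on low counts, had 2, 0 and 3 reads with vehicle and 21, 5 and 49 with triol; triol replicate 2 was closest to the vehicle libraries. Muc2, an intestinal mucin, had 7, 3 and 5 reads with vehicle and 16, 19 and 20 with triol (2.98 times in RPM, exact counting interval 1.66 to 5.67, edgeR adjusted p = 0.21), and 6, 4 and 5 in unirradiated cells. Muc2 had enough reads to be tested only because of the triol libraries.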
